A study of Mus musculus with 12 samples.

Results

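The 40 genes described here belong to the interferon response and to the sensing of foreign or misplaced nucleic acid. They were chosen by name, from a list of 9 sensors and adaptors, 5 transcription factors and 26 effectors, and each gene was taken as the row of the deposited table whose Ensembl ID carries that symbol in the GENCODE annotation of GRCm38. Every one of the 40 had a row among the 39179 gene IDs, and all 40 passed the filter on low values (4 or higher on the log2 scale in 6 libraries or more), which 16197 genes passed. Oas3 passed that filter mainly through the null libraries.

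Cells carry receptors that recognise viral or misplaced RNA. RIG-I and MDA5 in the cytosol signal through the mitochondrial protein MAVS, TLR3 signals from endosomes, and both routes activate the factors IRF3 and IRF7, which switch on interferon genes. Secreted interferon then acts through its receptor and the kinases of the JAK family on a complex that holds STAT2 and IRF9, which binds the interferon-stimulated response element in the promoters of effector genes such as Isg15, the Ifit genes and the Oas genes. Many sensors, Ddx58 and Ifih1 among them, are themselves induced by interferon.

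The prostates came from mice 4 months old whose background mixed 129/SvImJ with C57Bl/6J, and their poly-A RNA was sequenced. One group was wild type for the gene under study and the other was null for it, with 6 libraries each. Mice of both groups had received paraquat, a herbicide that makes cells produce superoxide, so every value below is from treated tissue and the comparison is between genotypes. The labels do not describe how the null allele was made, nor whether a library is 1 animal or a pool.

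Values are log2 expression values that the authors had normalized between libraries. A difference is the null mean minus the wild-type mean on that scale, which may understate changes of genes near its floor. The depth estimated from the values was 14.8 to 21.7 M reads per library. Within each genotype the libraries formed a pair of sets, 1 to 3 and 4 to 6. Over all genes, libraries of a set differed by a median of 0.0776 to 0.141 and sets of a genotype by 0.274 to 0.352, and nothing in the labels says whether the 3 libraries of a set are separate animals. Each gene was therefore tested with limma across the 12 libraries and again over the 4 set means, with Benjamini-Hochberg adjustment over all 16197 genes. "Rose" and "fell" are written only of genes that passed an adjusted p of 0.05 in both. "Called" refers to the fit that is named, and p-values across 12 libraries measure only the spread between these libraries. Seminal vesicle markers (Svs2, Svs3a, Svs4, Svs5 and Pate4) set the null libraries apart. Their summed linear level was 40.2 to 208 in wild type, 2778130 on average in null libraries 1 to 3 and 113811 in null libraries 4 to 6. The markers did not share that order of the null sets. Svs2 (21.03 in 1 to 3 and 11.37 in 4 to 6), Svs5 (18.93 and 13.26) and Pate4 (16.73 and 7.86) were lower in 4 to 6. Svs3a (11.78 and 13.65) and Svs4 (14.58 and 16.43) were higher there. The prostate luminal markers Pbsn, Krt8, Krt18, Cd24a and Hoxb13 were present in every library, with a summed level of 339840 to 518087 in wild type and 32486 to 34407 in the null. Most of the wild-type sum was the secretory gene Pbsn (mean 18.43), which had a difference of -7.37. The differences of Krt18, Cd24a and Hoxb13 were -1.13, -0.99 and -1.37. That of Krt8 was -0.29 and was not called in either fit. In such bulk tissue, fewer cells of a type and less RNA per cell cannot be told apart.

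The interferon-stimulated response element is shown first, because it is what many of these genes are known to share. RefSeq promoters (GRCm38.p6, 250 bases before to 50 after a start) were at hand for 29 of the 40 genes. The letters GAAANNGAAA were searched on both strands, with overlapping matches counted. The letters occurred in at least 1 promoter of 13 of the 29 genes (44.8%), against 1079 of 27025 genes in the whole promoter table (3.99%). Since the members were chosen as interferon-response genes, that share describes the list. The matches of 3 sensors lay just downstream of the start, at bases 3 to 12 in Ddx58, 19 to 28 in Eif2ak2 and 33 to 42 in Ifih1, where 1 is the first transcribed base. The matches of effectors lay upstream, at -78 to -57 in Isg15 (3 overlapping copies), -75 to -66 in Oas3, -104 to -95 and -85 to -76 in Ifit1, and -156 to -147 and -122 to -113 in Ifit3. The windows of 30 bases below are on the gene's strand, with the match in capitals. The first 6 genes were called higher in the null across the 12 libraries, Stat2 was called lower and Bst2 was not called.
Ddx58, chr4:40239804-40239833, minus strand: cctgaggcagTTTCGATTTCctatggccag
Eif2ak2, chr17:78882535-78882564, minus strand: agtccgccggGAAAACGAAAcagaagagaa
Ifih1, chr2:62646206-62646235, minus strand: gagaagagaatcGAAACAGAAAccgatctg
Isg15, chr4:156200871-156200900, minus strand: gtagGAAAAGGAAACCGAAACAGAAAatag
Oas3, chr5:120777715-120777744, minus strand: gcagggaggaGAAAACGAAAgtgaagggag
Ifit1, chr19:34640794-34640823, plus strand: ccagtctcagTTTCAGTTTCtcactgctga
Stat2, chr10:128270266-128270295, plus strand: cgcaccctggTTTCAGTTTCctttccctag
Bst2, chr8:71537580-71537609, minus strand: attccagGAAAATGAAACTGAAAggctgca

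Among genes with a promoter in the table, the letters were present for 10 of 20 called higher across the 12 libraries, 1 of 4 called lower and 2 of 5 not called. These counts are small, and no test was made of them. The second motif searched, TTCNNNGAA, the core bound by STAT dimers, occurred in 7 of the 29 genes (24.1%) and in 9.55% of all genes with a promoter. The 7 were Adar, Bst2, Eif2ak2, Ifi35, Ifit2, Irf1 and Oas1a. A match is a string of letters and not a bound site.

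As a group the members were higher in the null. Across the 12 libraries limma called 26 of 40 higher, where 34.1% of all genes tested were called higher, and 6 lower, where 31.8% were. The remaining 8 were called in neither direction. The median difference of the members was 0.46, beside 0.05 over all genes tested, and 29 of the 40 differences were positive, against 52.9% of all genes. The 6 null libraries did not overlap with the 6 wild-type libraries for 22 members that were higher (21.5% of all genes) and for 4 that were lower (22.7%). On the set means the test called 2 members higher (2.15% of all genes) and 0 lower (1.93%). Those 2 were Ddx58 and Oas3. The median difference from the wild-type mean was 0.47 in null libraries 1 to 3 and 0.46 in null libraries 4 to 6. Single members differed between those sets, such as Mx1 (-1.17 and -0.04), Bst2 (-0.77 and 0.07), Tmem173 (-0.64 and 0.11) and Xaf1 (0.72 and -0.34). The part of the seminal vesicle signal in these values was not tested.

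**Figure D1:**
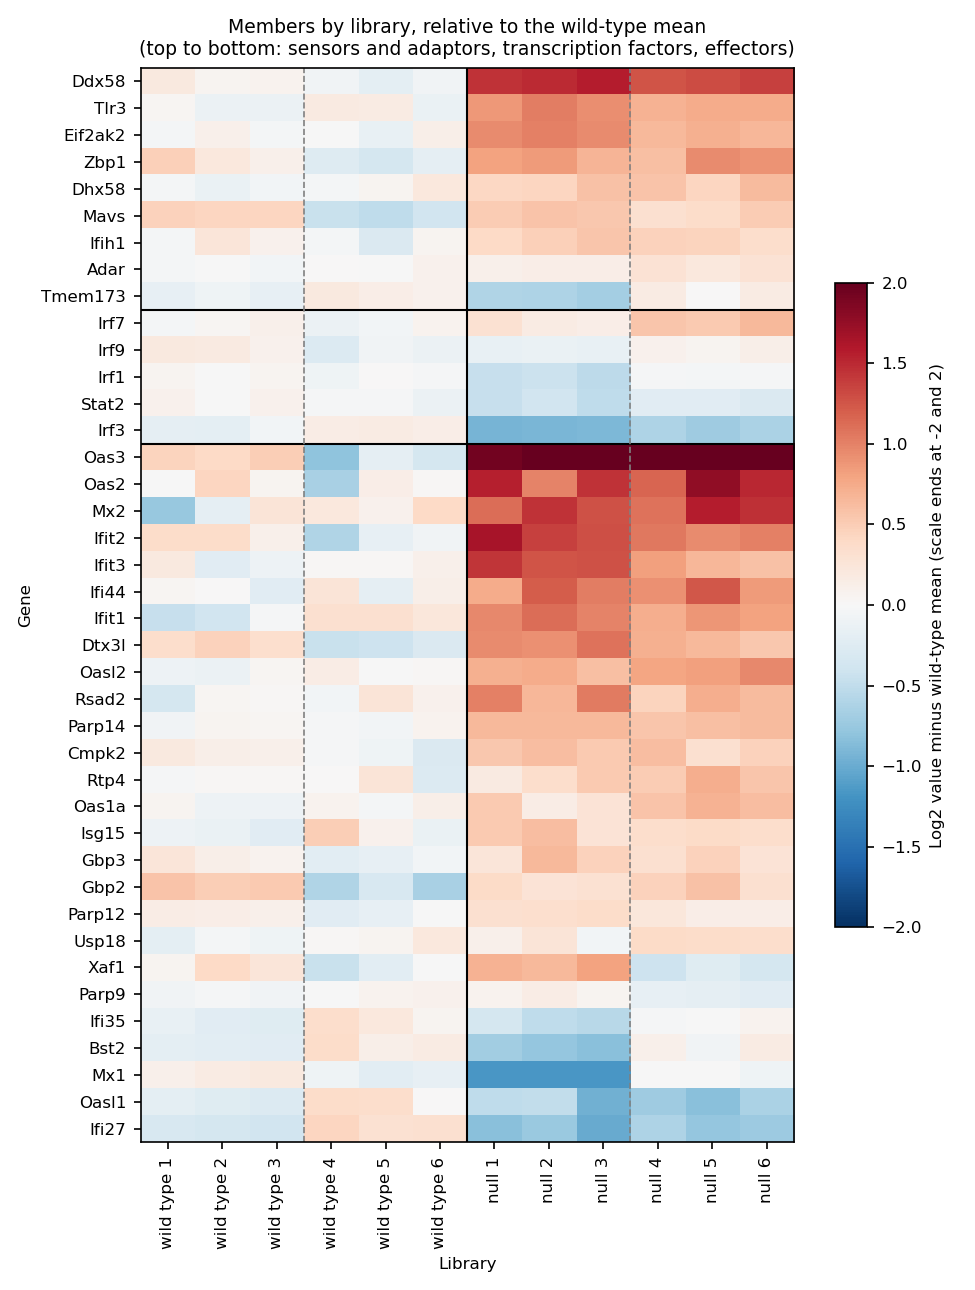
Each row is 1 of the 40 members and each column 1 library; colour gives the log2 value minus the gene's wild-type mean, solid lines separate genotypes and role classes, and dashed lines separate the sets of 3 libraries. Most sensors and effectors are red in all 6 null libraries, whereas Irf3, Oasl1 and Ifi27 are blue there and Mx1 is blue in null libraries 1 to 3 alone.

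By role, sensors and effectors were mostly higher and the transcription factors were mixed. Of 9 sensors and adaptors, 8 were called higher across the 12 libraries and 0 lower, with a median difference of 0.51. Of all genes tested, 34.1% were called higher and 31.8% lower in that fit. Of 26 effectors, 17 were called higher and 3 lower, with a median of 0.47. Of the 5 transcription factors, 1 was called higher and 3 lower, with a median of -0.25, which was -0.45 in null libraries 1 to 3 and -0.03 in null libraries 4 to 6. A class of 5 genes is too small to tell its counts from the shares of all genes. No test of the difference between classes was made.

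Ddx58, which encodes the cytosolic RNA sensor RIG-I (ENSMUSG00000040296, GRCm38 chromosome 4, 40203773 to 40239828, minus strand), rose in the null. Its wild-type values ran from 8.07 through a median of 8.25 to 8.46, and its null values from 9.51 through 9.67 to 9.83. The highest wild-type library thus stayed below the lowest null library by more than the range of either group. The difference was 1.41, a ratio of 2.65 on the linear scale, with an SE of 0.08 across the 12 libraries (limma adjusted p = 1.39e-08) and 0.21 on the set means (adjusted p = 0.0244). Null libraries 1 to 3 were 1.502 above the wild-type mean and null libraries 4 to 6 were 1.310 above it. With limma's trend off, the fit over set means gave an adjusted p of 0.0517 for Ddx58. Its 250 bases upstream are printed below; the match shown above lies past their end, and the letters GAAANNGAAA do not occur in this stretch.
Ddx58, chr4:40239826-40240075, minus strand: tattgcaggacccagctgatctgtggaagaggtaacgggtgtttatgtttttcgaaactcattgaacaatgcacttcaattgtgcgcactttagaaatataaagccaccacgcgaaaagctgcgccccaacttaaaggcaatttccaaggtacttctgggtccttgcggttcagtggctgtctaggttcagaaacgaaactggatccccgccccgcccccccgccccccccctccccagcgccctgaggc

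The relatives of RIG-I were higher by smaller amounts. Ifih1, encoding MDA5, which senses long RNA duplexes, ran from 8.46 to 8.99 (median 8.76) in wild type and from 9.10 to 9.30 (median 9.21) in the null. Dhx58, encoding LGP2, a helicase that modulates the other 2 sensors, ran from 6.89 to 7.24 in wild type and from 7.44 to 7.66 in the null. Neither gene's groups overlapped, and both were called across the 12 libraries (differences of 0.45 and 0.51, limma adjusted p = 0.000400 and 0.000212) and not on the set means (adjusted p = 0.182 and 0.227). The antisense gene Dhx58os overlaps Dhx58, and with the strand setting unknown, reads of that pair cannot be told apart. Removing each library's trend along transcript length left Ifih1 at 0.06, not called (adjusted p = 0.543 across the 12 libraries), and Ddx58 at 1.22.

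Eif2ak2 and Tlr3 followed Ddx58 in the size of their difference. Eif2ak2 encodes PKR, the kinase that halts translation when it binds RNA duplexes. It lay between 8.28 and 8.53 (median 8.40) in wild type and between 9.07 and 9.43 (median 9.24) in the null. Tlr3, the endosomal receptor for RNA duplexes, lay between 7.87 and 8.18 (median 7.96) in wild type and between 8.70 and 9.03 (median 8.81) in the null. For both genes every null library was above every wild-type library. The difference was 0.82 for Eif2ak2 (SE 0.21 on the set means, limma adjusted p = 2.80e-06 across the 12 libraries and 0.0812 on the set means). It was 0.83 for Tlr3 (SE 0.22, adjusted p = 3.83e-06 and 0.0843). The span of Eif2ak2 overlaps those of Gm26637 and n-R5s29.

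The remaining sensors and adaptors were less uniform. Zbp1, whose product binds nucleic acid in the left-handed Z form, had values of 5.30 to 6.12 in wild type and 6.25 to 6.60 in the null, a difference of 0.80. Adar, encoding the editing enzyme that marks cellular RNA as self, had values of 10.01 to 10.15 in wild type and 10.15 to 10.35 in the null, a difference of 0.19 that turned to -0.24 with the length trend removed. The span of Adar overlaps that of Chrnb2. Mavs, the adaptor on which RIG-I and MDA5 converge, was at 10.06 in wild-type libraries 1 to 3 and 9.17 in wild-type libraries 4 to 6, while the null sets were at 10.15 and 10.01. Its difference of 0.47 (adjusted p = 0.0363 across the 12 libraries) therefore lay mostly in 1 wild-type set: it was 0.03 without that set, and the call was lost on leaving out any of wild-type libraries 4, 5 or 6 or null libraries 1, 2, 3 or 6 (adjusted p of 0.0572 to 0.0835). Tmem173, encoding STING, which relays the signal of cytosolic DNA, was at 9.73 and 10.01 in the wild-type sets and at 9.24 and 9.98 in the null sets. It was not called in either fit, and its difference of -0.26 was -0.64 for null libraries 1 to 3 and 0.11 for null libraries 4 to 6.

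**Figure D2:**
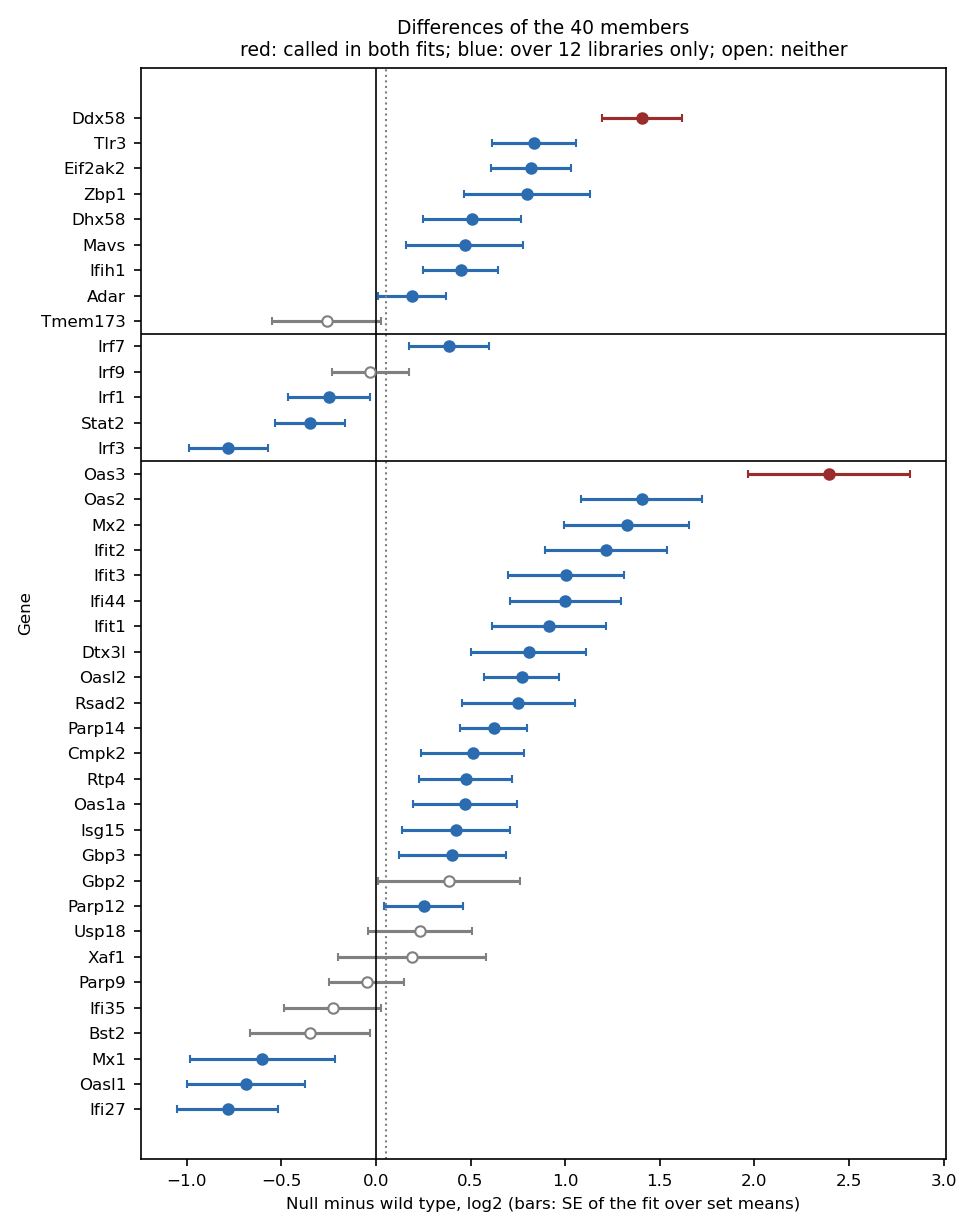
Points give the difference of each member (null minus wild type, log2) and bars its SE in the fit over set means; red marks genes called in both fits, blue those called across the 12 libraries alone, open points those called in neither, and the dotted line is the median of all genes tested. Ddx58 (1.41) and Oas3 (2.39) are the red points, and 4 of the 5 transcription factors in the middle block lie at or below 0.

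Irf3, the factor that RIG-I, MDA5 and TLR3 activate by phosphorylation, was lower in the null. Its wild-type values ran from 11.01 (median 11.25) to 11.37 and its null values from 10.28 (median 10.41) to 10.60, so no null library reached the lowest wild-type library. The difference was -0.78, with an SE of 0.09 across the 12 libraries (limma adjusted p = 9.29e-06) and 0.21 on the set means (adjusted p = 0.0844). Both null sets lay below the wild-type mean, by -0.91 and -0.65. The gene span overlaps that of Bcl2l12. Within a library, Ddx58 was below Irf3 throughout, but the value of Ddx58 minus that of Irf3 was -3.30 to -2.57 in wild type and -1.09 to -0.48 in the null.

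Stat2, a subunit of the complex that binds the response element, was also lower, with 10.64 to 10.84 (median 10.74) in wild type and 10.24 to 10.54 (median 10.42) in the null. The difference of -0.35 (SE 0.19 on the set means) was called across the 12 libraries (limma adjusted p = 0.000474) and not on the set means (adjusted p = 0.242). Scaled to library totals, Stat2 was at -0.03 and not called (adjusted p = 0.718). Irf7, which amplifies the response once interferon has been made, was the factor that was higher, with 9.04 to 9.27 (median 9.16) in wild type and 9.29 to 9.80 (median 9.58) in the null. Its difference was 0.38 (adjusted p = 0.00293 across the 12 libraries and 0.255 on the set means), and it was larger in null libraries 4 to 6 (0.57) than in 1 to 3 (0.20). The span of Irf7 overlaps that of Phrf1. Spans of 13 of the 40 members, Irf7 included, overlap another gene of the table. Irf1, a factor of the interferon-gamma response, had a difference of -0.25 that lay in null libraries 1 to 3 (9.48 against 9.95 in wild type), with null libraries 4 to 6 at 9.92. That call was lost on leaving out any library other than wild-type library 4 or null library 4, 5 or 6 (adjusted p of 0.0552 to 0.0856).

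Irf9, the DNA-binding subunit of the same complex, had overlapping groups, 10.24 to 10.71 in wild type and 10.37 to 10.64 in the null, and a difference of -0.03 (limma adjusted p = 0.779 across the 12 libraries). Its span overlaps Rnf31. The 250 bases before the first of its 2 RefSeq starts are printed as those of a member near 0, beside those of Xaf1, an effector with a difference of 0.19 (adjusted p = 0.499). Neither stretch holds GAAANNGAAA.
Irf9, chr14:55603735-55603984, plus strand: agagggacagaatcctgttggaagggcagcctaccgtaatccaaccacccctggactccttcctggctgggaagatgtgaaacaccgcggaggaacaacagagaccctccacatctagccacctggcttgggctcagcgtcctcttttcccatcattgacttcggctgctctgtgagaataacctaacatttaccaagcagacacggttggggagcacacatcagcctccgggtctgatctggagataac
Xaf1, chr11:72301379-72301628, plus strand: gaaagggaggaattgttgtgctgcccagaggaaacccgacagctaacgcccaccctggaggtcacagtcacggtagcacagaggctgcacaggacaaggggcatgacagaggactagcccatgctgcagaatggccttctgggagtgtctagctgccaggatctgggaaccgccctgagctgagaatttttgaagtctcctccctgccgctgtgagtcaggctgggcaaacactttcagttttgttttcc

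Among the effectors, the oligoadenylate synthetases held the largest difference. These enzymes make short adenylate chains that activate RNase L, which then cuts RNA. Oas3 (ENSMUSG00000032661, chromosome 5, 120753098 to 120777661, minus strand) ran from 2.82 (median 3.75) to 4.12 in wild type and from 5.56 (median 5.97) to 6.49 in the null. It rose by 2.39 (SE 0.24 across the 12 libraries, limma adjusted p = 3.20e-06; SE 0.43 on the set means, adjusted p = 0.0379). The wild-type values lay near the floor of the table, where differences may be understated. On a scale damped with a pseudocount of 16 the difference was 1.501. Oas2, its neighbour on chromosome 5, ran from 4.51 to 5.59 in wild type and from 6.15 to 6.93 in the null, a difference of 1.40 (adjusted p = 2.75e-05 across the 12 libraries and 0.0645 on the set means). Oas1a, which has close relatives beside it, ran from 6.95 to 7.17 and from 7.19 to 7.75, a difference of 0.47 that was 0.21 and not called with quantile normalization (adjusted p = 0.176). The 250 bases upstream of Oas3 hold its match in capitals.
Oas3, chr5:120777660-120777909, minus strand: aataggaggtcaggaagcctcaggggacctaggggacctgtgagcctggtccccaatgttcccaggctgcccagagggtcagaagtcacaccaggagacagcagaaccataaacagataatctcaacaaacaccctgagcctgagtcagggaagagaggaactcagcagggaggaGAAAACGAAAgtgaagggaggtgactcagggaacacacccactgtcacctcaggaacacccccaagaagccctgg

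The Ifit genes lie together on chromosome 19 and were all higher in the null. The product of Ifit1 binds viral RNA that lacks the methyl marks of cellular caps. Ifit2 ran from 6.13 to 7.10 (median 6.74) in wild type and from 7.67 to 8.38 (median 7.90) in the null. Ifit3 ran from 6.76 to 7.17 and from 7.57 to 8.42 (null median 8.02). Ifit1 ran from 6.66 to 7.44 (median 7.22) and from 7.84 to 8.23 (median 8.04). No null library overlapped a wild-type library for any of the 3. Their differences of 1.22, 1.003 and 0.92 were called across the 12 libraries and had adjusted p of 0.0840, 0.103 and 0.114 on the set means. All 3 were higher in null libraries 1 to 3 than in 4 to 6, most for Ifit3 (8.30 and 7.67). Ifit3 has a near-identical copy, Ifit3b, between which reads may have been divided.

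Some neighbouring paralogues went in opposite directions. Mx1 and Mx2 encode dynamin-like GTPases that block virus replication and lie 72401 bases apart on chromosome 16. In the reference strain C57BL/6 both genes are known to carry defects, and which alleles these hybrid mice had was not examined. Mx2 ran from 4.43 to 5.59 (median 5.34) in wild type and from 6.27 to 6.77 (median 6.55) in the null, a difference of 1.33 (limma adjusted p = 5.53e-05 across the 12 libraries and 0.0759 on the set means). Mx1 was at 8.05 in null libraries 1 to 3, at 9.18 in null libraries 4 to 6, and at 9.37 and 9.07 in the wild-type sets. Its difference of -0.60 (adjusted p = 0.0364 across the 12 libraries) thus lay in 1 null set, and without that set the difference was -0.04. The call for Mx1 was also lost on leaving out any of wild-type libraries 1 to 4 or null libraries 1 to 3 (adjusted p of 0.0506 to 0.0822).

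Oasl1 and Oasl2, which lie 11006 bases apart on chromosome 5 on the same strand, parted in both null sets. Oasl1, encoding an oligoadenylate synthetase-like protein known to restrain translation of Irf7, ran from 6.63 to 7.26 (median 6.80) in wild type and from 5.94 to 6.40 (median 6.23) in the null. Oasl2 ran from 8.59 to 8.85 (median 8.71) and from 9.31 to 9.67 (median 9.46). The groups did not overlap for either gene. Oasl1 had a difference of -0.69 (limma adjusted p = 0.00107 across the 12 libraries and 0.188 on the set means), and Oasl2 one of 0.77 (SE 0.20, adjusted p = 1.42e-06 and 0.0803). Within a library, Oasl2 minus Oasl1 was 1.45 to 2.11 in wild type and 3.02 to 3.45 in the null. These pairs were singled out after their values were seen, and the difference within a pair was not tested. The span of Oasl1 overlaps that of the gene model Gm13822.

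**Figure D3:**
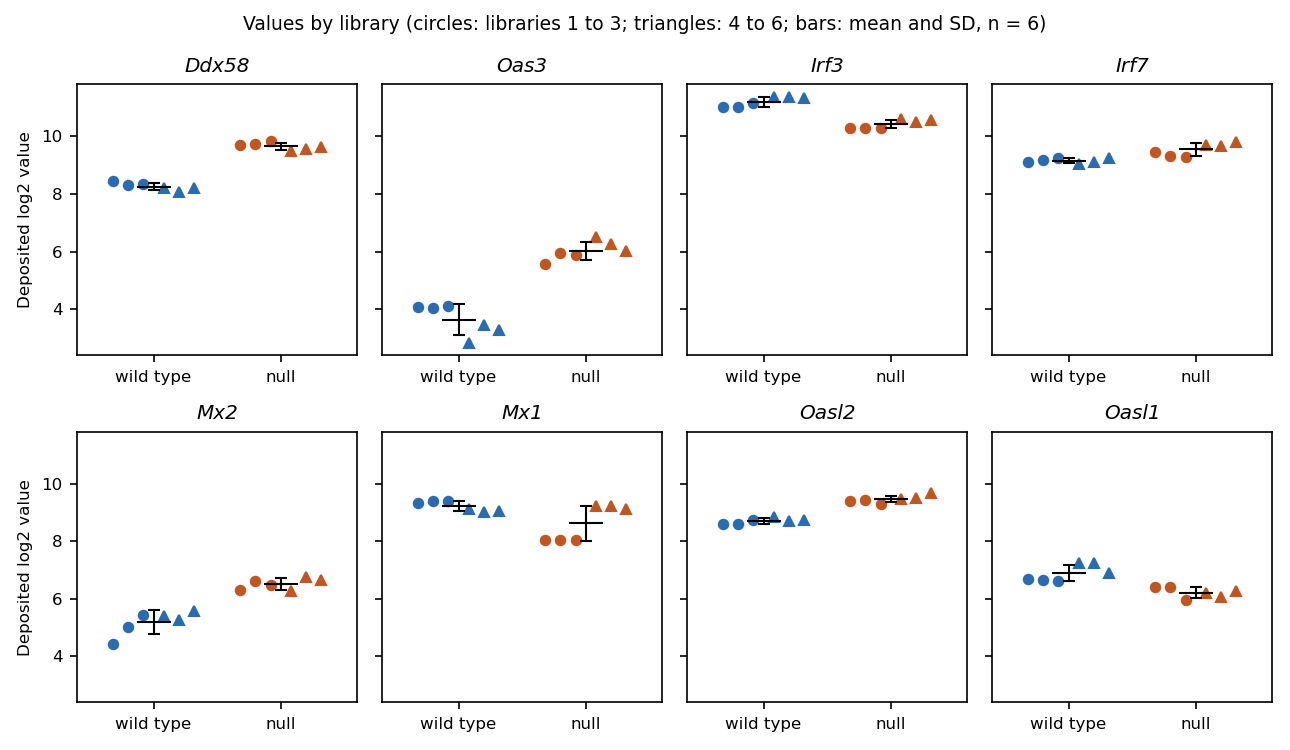
Each panel plots the deposited log2 value of 1 gene in the 6 wild-type (blue) and 6 null (orange) libraries, with circles for libraries 1 to 3, triangles for 4 to 6, and the mean with its SD. Ddx58, Oas3, Mx2 and Oasl2 sit higher in all 6 null libraries, Irf3 and Oasl1 sit lower, and Mx1 is low in null libraries 1 to 3 alone.

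The ADP-ribosyltransferase Parp14 had the lowest p-value of the effectors across the 12 libraries, and 5 effectors had lower ones on the set means. It lay between 9.31 and 9.44 (median 9.38) in wild type and between 9.93 and 10.03 (median 10.02) in the null, a difference of 0.62 (SE 0.05, limma adjusted p = 2.85e-07 across the 12 libraries; SE 0.18, adjusted p = 0.0951 on the set means). Its transcript, 7417 bases, was the longest of the members, and with the length trend removed the difference was 0.09 and not called. Dtx3l and Parp9 encode partners in 1 ubiquitin ligase complex and overlap by 682 bases on opposite strands. Dtx3l was at 8.94 and 8.18 in the wild-type sets and at 9.54 and 9.20 in the null sets, a difference of 0.81 (adjusted p = 0.00128 across the 12 libraries). Parp9 overlapped between genotypes, 9.80 to 9.95 and 9.64 to 10.01, with a difference of -0.05. Parp12 had a difference of 0.25, which was 0.16 and not called with the length trend removed (adjusted p = 0.0752).

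Further effectors were called higher across the 12 libraries. Ifi44 ran from 5.58 to 6.07 in wild type and from 6.56 to 7.06 in the null, without overlap (limma adjusted p = 1.97e-05 across the 12 libraries and 0.0966 on the set means). Rsad2, encoding viperin, which makes a chain-terminating nucleotide, ran from 5.91 to 6.52 and from 6.71 to 7.30 (difference 0.75). Cmpk2, a nucleotide kinase gene beside Rsad2 on chromosome 12 in the opposite orientation, ran from 6.69 to 7.17 and from 7.29 to 7.59 (difference 0.51). For both Rsad2 and Cmpk2 every null library was above every wild-type library, a split seen in 21.5% of all genes tested. Neither was called on the set means (limma adjusted p = 0.151 for Rsad2 and 0.239 for Cmpk2).

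Isg15 encodes the ubiquitin-like protein that is attached to targets during the response, and Usp18 the protease that removes it and dampens interferon signalling. Isg15 ran from 6.51 to 7.23 (median 6.62) in wild type and from 7.01 to 7.36 (median 7.10) in the null, so that wild-type library 4 reached the null range. Its difference of 0.42 was called across the 12 libraries (limma adjusted p = 0.0102) and not on the set means (adjusted p = 0.336). With quantile normalization Isg15 was at 0.13 and not called (adjusted p = 0.414), and its call was also lost without wild-type libraries 1 to 3 (0.27, adjusted p = 0.121) or null libraries 1 to 3 (0.37, adjusted p = 0.0684). Usp18 ran from 6.92 to 7.32 and from 7.05 to 7.49, a difference of 0.23 that was called in neither fit (adjusted p = 0.0602 across the 12 libraries). It was called without wild-type library 6 (0.28, adjusted p = 0.0374) or null library 3 (0.29, adjusted p = 0.0225). Rtp4 had a difference of 0.47 with overlapping groups, and its span overlaps that of Masp1.

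The guanylate-binding proteins, GTPases that attack membranes around pathogens, showed how a wild-type set could carry a difference. Gbp2 was at 8.36 in wild-type libraries 1 to 3, at 7.30 in wild-type libraries 4 to 6, and at 8.15 and 8.28 in the null sets. It was not called (difference 0.39, limma adjusted p = 0.137 across the 12 libraries). Gbp3 ran from 6.53 to 6.99 in wild type and from 6.99 to 7.39 in the null, a difference of 0.40 that was 0.12 and not called with quantile normalization (adjusted p = 0.349). The call for Gbp3 was also lost without wild-type libraries 4 to 6 (0.26, limma adjusted p = 0.0734). Both belong to a family of similar genes on chromosome 3, and reads may have been shared.

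The effectors that were not higher included those with the highest level per kilobase of transcript. On the scale of log2 value less log2 of transcript kilobases, Ifi27 had the highest wild-type level of the members (11.08), followed by Bst2 (10.37) and Irf3 (10.19), and Oas3 had the lowest (1.39). Ifi27, whose small product resides in mitochondria, ran from 10.66 to 11.47 (median 11.04) in wild type and from 10.04 to 10.43 (median 10.29) in the null without overlap. Its difference was -0.78 (limma adjusted p = 0.000555 across the 12 libraries and 0.121 on the set means). Bst2, encoding tetherin, which holds budding viruses at the cell surface, was at 9.27 in null libraries 1 to 3 and 10.10 in 4 to 6, against 9.82 and 10.24 in the wild-type sets. Its difference of -0.35 was not called (adjusted p = 0.124), and it was called without null library 6 (-0.45, adjusted p = 0.0485). Ifi35 was not called (difference -0.23). Xaf1, a pro-apoptotic gene, was at 8.75 in null libraries 1 to 3 and 7.70 in 4 to 6, on either side of the wild-type sets at 8.26 and 7.81.

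The other genes of the pathway came from lists of related genes. Of 21 interferon genes listed, 17 had a row and 0 passed the filter. Their values ran from 1.02 to 3.84 in any library, within the range of the table's floor, so no comparison between genotypes was made for Ifnb1, the Ifna genes, Ifng or the interferon-lambda genes. Of the 17, Ifne, encoding interferon epsilon, was the gene whose libraries did not overlap, at 1.43 to 2.56 in wild type and 2.76 to 3.84 in the null, and it was not tested. Such a split with the null higher was seen in 21.5% of all genes tested. At values this near the floor it says nothing about interferon genes. Of 10 receptor and JAK-STAT genes, 5 were called higher and 3 lower across the 12 libraries, with a median of 0.16. For this and each list that follows, 34.1% of all genes were called higher and 31.8% lower, and a share of a list near these says nothing about the list. Jak2, the kinase of the interferon-gamma receptor and of many cytokine receptors, rose from 9.39 ± 0.12 to 10.70 ± 0.05 (SD, n = 6), a difference of 1.31 (SE 0.18, limma adjusted p = 0.0209 on the set means). Ifngr1, the ligand-binding chain of the interferon-gamma receptor, fell by 1.26 (SE 0.19, adjusted p = 0.0251), from 11.204 ± 0.145 to 9.95 ± 0.06 (SD, n = 6). Ifngr2, its second chain, had a difference of -0.69 (adjusted p = 3.11e-05 across the 12 libraries and 0.101 on the set means).

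Of 21 genes that carry signals from nucleic acid sensors, 10 were called higher and 7 lower (the latter near the share of all genes) across the 12 libraries and 0 on the set means (limma), where the lowest adjusted p was 0.0591. That gene was Ticam1, the adaptor of TLR3, with values of 10.10 to 10.39 in wild type and 9.22 to 9.61 in the null (difference -0.91). Aim2, a sensor of cytosolic DNA, had a difference of -1.56 and Ddx60, a helicase, one of 1.25. Of 49 tested genes among 52 other interferon-induced genes, 27 were called higher and 8 lower, with a median of 0.44. Helz2, a nuclear helicase gene, rose by 1.346 (SE 0.22, adjusted p = 0.0292), and Tor3a, an endoplasmic reticulum ATPase gene, fell by 1.06 (SE 0.19, adjusted p = 0.0390). Znfx1, an RNA helicase gene chosen here for its values, rose by 1.43 (adjusted p = 0.0355). Trafd1, a negative regulator of the response, had a difference of -0.74.

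Among 10 negative regulators, 5 were called higher and 3 lower (again near the share of all genes) across the 12 libraries, with Nlrc5 at 1.52, Tnfaip3 at 0.62 and Irf2, which competes with Irf1 for binding sites, at -0.64. The genes that clear nucleic acid from cells had 2 called higher and 3 lower of 6 tested, with Samhd1 at 0.54, Rnaseh2c at -0.81 and Rnaseh2b at -0.64. Of 4 other Irf genes and Irf2bp2, 2 were called higher and 3 lower. Irf4 was at 0.75, Irf5 at 0.49 and Irf8 at -0.49. None of the genes in these 3 lists was called on the set means.

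**Figure D4:**
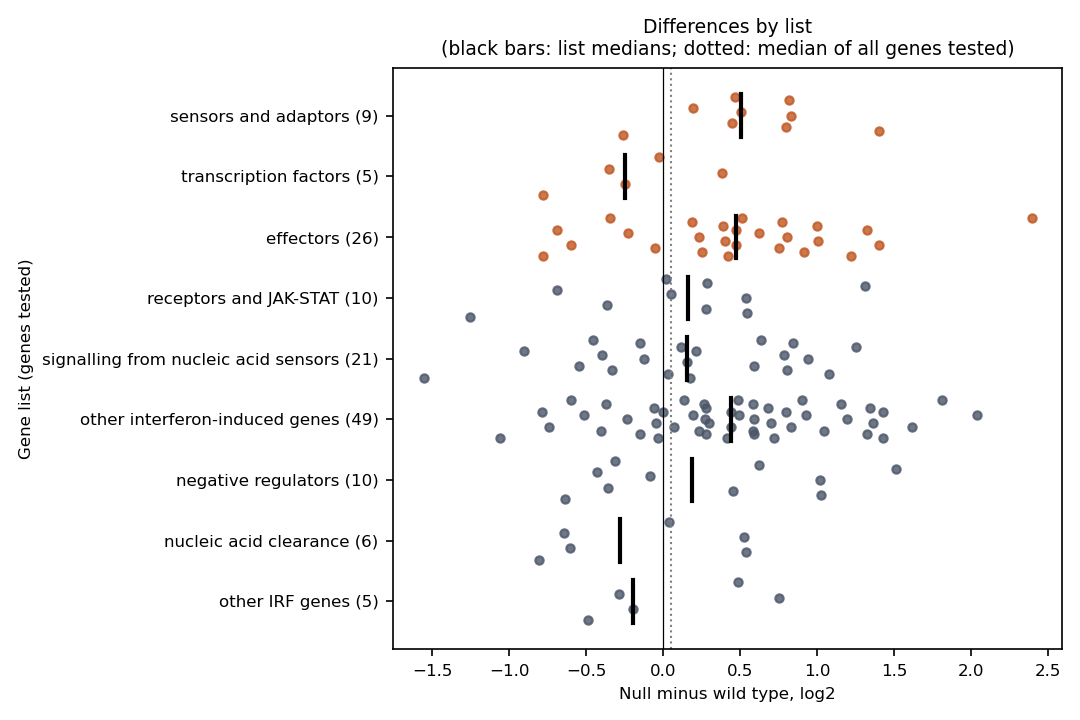
Each point is the difference of 1 tested gene (null minus wild type, log2), in rows by gene list with the number tested; orange points are the 40 members, black bars the list medians, and the dotted line the median of all genes tested (0.05). The medians of sensors (0.51), effectors (0.47) and other interferon-induced genes (0.44) lie to the right of the other lists, and those of the transcription factors (-0.25), nucleic acid clearance (-0.28) and other Irf genes (-0.19) lie to the left of 0.

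Immune cells make many of these transcripts, so markers of immune and vascular cells are given beside the members. Across the 12 libraries, 34.1% of all genes tested were called higher and 31.8% lower. For each cell type below the list is small, and a count near these shares says nothing about the cells. On the set means, Cd52 alone of the immune and vascular markers was called (limma adjusted p = 0.0244). Of 6 pan-leukocyte markers 4 were called higher across the 12 libraries. Their summed linear level was 6646 to 8121 in wild type and 26984 to 46071 in the null, and without Cd52, which epithelia of the male tract also make, it was 4026 to 5914 and 4894 to 6434. Ptprc, which encodes CD45, had a difference of 1.18 (limma adjusted p = 0.0735 on the set means). The summed level of 7 macrophage markers was 3168 to 3636 in wild type and 3332 to 5209 in the null, with 3 called higher, and that of 6 dendritic cell markers was 214 to 263 and 319 to 473, with 5 called higher. Of the plasmacytoid dendritic cell markers 0 of 3 tested were called in the fit across 12 libraries, with sums of 123 to 319 and 132 to 240, and Ccr9 was below the filter. T cell markers summed to 257 to 496 and 406 to 689 (1 of 6 called higher), NK cell markers to 166 to 195 and 197 to 270 (2 of 3 tested, with Ncr1 and Eomes below the filter), and B and plasma cell markers to 1190 to 2338 and 2244 to 3947 (1 of 6). Of 5 neutrophil markers S100a8, S100a9, Ly6g and Retnlg were below the filter, and the sums were 39.6 to 53.8 and 65.7 to 115. The marker tested, Csf3r, had a difference of 1.17. It was called across the 12 libraries (limma adjusted p = 0.000574) and not on the set means (adjusted p = 0.124).

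All 4 endothelial markers were called higher across the 12 libraries, with sums of 709 to 869 in wild type and 1311 to 1876 in the null, as were all 4 fibroblast markers (8501 to 10339 and 11223 to 14324). Smooth muscle had 3 of 4 called lower, with overlapping sums (77504 to 92482 in wild type and 58445 to 91848 in the null). The other marker, Myh11, was not called (difference 0.39, with 0.93 in null libraries 1 to 3 and -0.14 in 4 to 6). Basal epithelium had 2 of 3 called higher, Krt5 (0.57) and Trp63 (1.44), and 1 lower, Krt14 (-0.59). Trp63 was also called on the set means (limma adjusted p = 0.0237). The leukocyte, macrophage, dendritic and T cell sums were higher in null libraries 4 to 6 than in 1 to 3 (macrophage 4976 and 3398 on average), and the endothelial (1389 and 1801), fibroblast (11289 and 14099) and plasmacytoid dendritic cell (151 and 217) sums were lower in 4 to 6. Of the members, Ddx58 and the Ifit genes were lower in 4 to 6 than in 1 to 3, whereas Oas3, Irf7, Oas1a and Oasl2 were higher. Over all members the median of null libraries 4 to 6 minus 1 to 3 was 0.05, beside 0.03 over all genes tested. The part of these cells in the members' differences was not tested.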

How the data were processed

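Poly-A RNA was sequenced on a HiSeq2000 with a TruSeq kit, per the labels' protocols. Per the submitters' processing notes, DESeq, Cufflinks, TopHat and CASAVA 1.8.2 were used with mm9 and GRCm38.p2, without roles. The deposited table holds log2 values that the authors normalized between libraries. It carries no counts. The transform, strand setting and handling of shared reads were not stated by any label or note. Of 39179 IDs, 37693 matched GENCODE (GRCm38).

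Depth was estimated from 855 to 1071 high values per library: on the linear scale, times a factor and less an offset, 100% were within 0.1 of whole numbers. Values near the floor do not follow that scale, so counts were not recovered for most genes.

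Genes at 4 or more in 6 or more libraries were tested with limma 3.58.1 (trend, two-sided) in R 4.3.3, over 12 libraries and over 4 set means, the sets being clusters within each genotype. The fits were tested on simulated data. Python 3.11.15 made summaries and figures.

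Members, lists, sets and tests were chosen with earlier results of these data known. Full statistics go to members called in both fits and the 3 of each class with the lowest p, and up to 3 genes are named per other list. Mb21d1 was matched as Cgas. The leukocyte sum without Cd52 was chosen after its values were seen. Alternatives were other scalings, filters, a damped scale, no trend, library weights, sets as random blocks, length trend removal and leaving out libraries or sets. Values of the deleted gene are not reported here.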

Additional observations from a re-analysis of the deposited data

How the results depend on the processing

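The members' median difference was positive under every alternative run, but counts moved. With the set as a random block, limma over the 12 libraries called 10 members higher and 2 lower (main 26 and 6), and of all genes 2285 higher and 2767 lower (main 5518 and 5152). The 10 were Ddx58, Eif2ak2, Tlr3, Ifit1, Ifit2, Ifit3, Oas3, Oasl2, Parp14 and Dtx3l, and the 2 were Irf3 and Ifi27. Scaling to library totals, which moved the median of all genes to 0.37, gave 3 members lower, 8611 genes higher and 2608 lower over the libraries, and 12 members and 1654 genes higher over the set means (main 2 and 349). Over the set means, 1 member was called higher with the stricter filter (Oas3 not tested) and 1 without limma's trend (Oas3), where 215 genes were higher and 185 lower (main 349 and 313); with the length trend removed 575 were lower, and over the libraries 3989 were higher and 6031 lower.

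The members' median of 0.46 was 0.77 with library totals, 0.53 with upper-quartile scaling, 0.28 with quantile normalization, 0.42 with the stricter filter, 0.40 with the length trend removed, 0.51 without wild-type libraries 1 to 3, 0.37 without wild-type libraries 4 to 6, and 0.41 to 0.48 with 1 library left out. Leaving out 1 library gave 25 to 26 members higher and 4 to 7 lower over the libraries, 2 higher and 0 lower over the set means, and over all genes 5051 to 5497 higher and 4847 to 5140 lower (301 to 375 and 285 to 340 over the set means).

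Some differences changed sign, Irf1 called lower across the libraries among them, in the fit over libraries and, for scalings and length, equally over set means. With library totals these were Tmem173 (0.0535), Irf1 (0.0643), Irf9 (0.285), Ifi35 (0.0861) and Parp9 (0.264). Upper-quartile scaling turned Irf9 (0.0470) and Parp9 (0.0267), quantile normalization Irf9 (0.0953), Usp18 (-0.0443) and Parp9 (0.0255), and the length trend Adar (-0.236). Without wild-type libraries 1 to 3 Irf9 was 0.123, and without 4 to 6 Parp9 was 0.00242, Xaf1 -0.0352 and Gbp2 -0.140. Without null libraries 1 to 3 Tmem173 was 0.113, Irf9 0.0835, Ifi35 0.0116, Bst2 0.0683 and Xaf1 -0.337, and without 4 to 6 Parp9 was 0.0920. With 1 library left out Irf9 ran from -0.0859 to 0.00773, with positive values without wild-type library 1 (0.00773) or 2 (0.00618). The causes were not tested. No paired analysis was possible because the labels carry no replicate numbers. Counts could not be recovered for low genes, so counting error near the floor is unknown.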
